A study of Drosophila melanogaster with 2 samples.

Results

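The regions described here are the peaks of maf-S chromatin binding that lay between genes and away from promoters in Drosophila melanogaster embryos. They were the peaks of the authors' thresholded dm6 list whose summit fell in no annotated gene and more than 500 bp from every annotated start site. Of the 3205 peaks of the list, 307 met this rule (9.58%, exact 95% interval 8.58 to 10.7). The remainder were 1009 peaks inside genes and away from start sites and 1889 peaks within 500 bp of a start site, called promoter peaks here. The rule used position alone and no measured value.

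The assay was ChIP-seq, in which DNA bound to a protein is pulled down with an antibody and sequenced, in 1 group of 2 biological replicates, numbered 2 and 3 in the labels. The material was whole embryos of both sexes, 0 to 24 h old, of a transgenic line with a stable maf-S-eGFP fusion, tagged at the C-terminus and pulled down through the GFP. There was no second condition, and each replicate was a pool of embryos of many stages and all tissues, so no cell type or stage can be assigned to a peak. Each peak carried a signal value given by the authors' peak caller, which ranks peaks within 1 list. The 307 rows were called on the pooled replicates, and the lists of the replicates gave the only measure of spread. No test was made over peaks, since peaks of the same libraries are not replicates.

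The protein maf-S is the single small Maf factor of the fly, a basic leucine zipper protein without an activation domain of its own. It binds DNA as a dimer, and with the longer partner Cap'n'collar (Cnc) it acts at antioxidant response elements, whose core is TGACNNNGC. Intergenic DNA of the fly holds enhancers, insulators and the promoters of genes that are not annotated. CTCF is a zinc finger protein of insulators, and its core recognition sequence is commonly written AGATGGCGC or AGGTGGCGC.

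Sequences near the summits are shown first, since their content is the main finding. The first set holds 5 peaks of high signal with a word containing TCAGTG, a family that was chosen after the data were seen and that has no name in the sources used here. Each is written 5′ to 3′ on the strand that reads TCAGTG, from 20 bases before the summit (base 21) to 110 bases after it. Capitals mark TCAGTGTA, TCAGTGCA or TCTCAGTG. The coordinates are chrX:5696408-5696538, minus strand, between CG3149 and AdamTS-B; chr2L:3832484-3832614, plus strand, between slp1 and slp2; chr2L:13083814-13083944, plus strand, between CG9932 and Ttc30; chr3R:14052181-14052311, minus strand, between CG9922 and foxo; and chr3L:11353113-11353243, minus strand, between CG6168 and CG6163. In all 5 the marked word lies after the summit, and a run of at least 3 T stands within the 8 bases before it.
CG3149 and AdamTS-B: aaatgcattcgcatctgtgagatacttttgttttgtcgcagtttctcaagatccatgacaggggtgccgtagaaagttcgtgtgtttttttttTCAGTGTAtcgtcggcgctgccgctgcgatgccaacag
slp1 and slp2: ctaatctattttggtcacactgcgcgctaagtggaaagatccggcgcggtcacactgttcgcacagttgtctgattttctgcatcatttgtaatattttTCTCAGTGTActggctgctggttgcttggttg
CG9932 and Ttc30: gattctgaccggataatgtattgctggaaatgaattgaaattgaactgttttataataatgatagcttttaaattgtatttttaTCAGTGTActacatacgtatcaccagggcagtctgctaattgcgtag
CG9922 and foxo: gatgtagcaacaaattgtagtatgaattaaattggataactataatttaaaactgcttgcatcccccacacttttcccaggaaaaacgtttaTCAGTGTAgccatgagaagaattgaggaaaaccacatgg
CG6168 and CG6163: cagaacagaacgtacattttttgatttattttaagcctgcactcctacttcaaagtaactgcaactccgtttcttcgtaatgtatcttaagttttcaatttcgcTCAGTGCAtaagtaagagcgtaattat

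The second set shows 3 peaks with the CTCF core, also chosen after the data were seen, with 60 bases on either side of the summit (base 61). Each is written on the strand that reads AGNTGGCGC, which is in capitals. The peak between noc and CG33648 (signal 192), which reads AGTTGGCGC, is not printed. They are chr2L:9567459-9567579, minus strand, between jp and brwl; chr3L:14111567-14111687, plus strand, between Sox21a and Sox21b; and chr3R:28672347-28672467, minus strand, between Sid and snu.
jp and brwl: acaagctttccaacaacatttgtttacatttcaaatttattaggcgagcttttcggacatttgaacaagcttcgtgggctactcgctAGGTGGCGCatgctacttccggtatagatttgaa
Sox21a and Sox21b: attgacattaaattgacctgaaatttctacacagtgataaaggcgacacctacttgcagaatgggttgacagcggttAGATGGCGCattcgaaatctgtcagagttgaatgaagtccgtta
Sid and snu: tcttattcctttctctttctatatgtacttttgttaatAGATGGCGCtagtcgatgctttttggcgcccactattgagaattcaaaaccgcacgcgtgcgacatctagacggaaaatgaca

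The third set gives the peaks ranked 2 and 4 by signal among the 307, the strongest whose sequence is printed here, between mtSSB and tara (chr3R:16222406-16222526, plus strand) and between C15 and sp3 (chr3R:21520292-21520412, plus strand), with the summit at base 61. They have no capitals, because no panel sequence, TCAGTG word or AGNTGGCGC lies within these 121 bases. The peak ranked 5, between RFeSP and chinmo (signal 499), held the panel sequence TATAAA and is not printed. The line of C15 and sp3 does hold gcgccatc, which reads GATGGCGC on the other strand. That word ranked 10 in the word search described below, with 16 of the 307 intergenic peaks and no window beside them. In the wider window of 201 bp, the peak between C15 and sp3 held the homeodomain core TAATTA. For contrast, the last line shows the Cnc-Maf core TGACNNNGC in capitals inside the peak between hng3 and CG13898 (chr3L:802784-802873, minus strand). The summit of that peak, at chr3L:802884, lies outside the printed stretch.
mtSSB and tara: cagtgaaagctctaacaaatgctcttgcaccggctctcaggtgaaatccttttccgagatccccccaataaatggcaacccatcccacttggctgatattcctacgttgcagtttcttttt
C15 and sp3: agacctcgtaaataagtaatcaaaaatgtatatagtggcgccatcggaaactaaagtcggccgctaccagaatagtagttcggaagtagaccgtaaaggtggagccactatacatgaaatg
hng3 and CG13898: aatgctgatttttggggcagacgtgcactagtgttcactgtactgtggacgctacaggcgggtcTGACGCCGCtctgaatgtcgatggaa

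The Cnc-Maf core was not more frequent at the intergenic summits than beside them. TGACNNNGC, searched on both strands in the 201 bp around each summit, was held by 18 of 307 intergenic peaks (5.86%, exact 95% interval 3.51 to 9.11). The windows of the same width 1 kb to either side, where no peak lay, held it in 46 of 594 (7.74%, 5.73 to 10.2). Those windows were not limited to intergenic sequence, so some may lie in genes or near start sites. The core was found in 4.56% of the peaks inside genes, 6.35% of promoter peaks and 5.74% of all 3205 peaks. In the intergenic peaks 10 of 19 matches (52.6%) lay within 50 bp of the summit, against 31 of 49 (63.3%) in the windows beside them. The intergenic matches were thus no closer to the centre than those of sequence without a peak.

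The 5 intergenic peaks of highest signal with this core lay in the gap between slp1 and slp2 (signal 331), between hng3 and CG13898 (262), between CG12643 and alpha-Man-Ia (237), beside Atf3 (172) and between SoxN and CG32986 (168). The paired genes slp1 and slp2 encode forkhead factors of segmentation, Atf3 encodes a basic leucine zipper factor, and SoxN a Sox factor of the nervous system. Other basic leucine zipper sequences, which have more fixed bases, were rarer in the peaks and in the flanking windows alike. The AP-1 sequence TGACTCA was found in 2 intergenic peaks (0.651%) and 10 flanking windows (1.68%), the Maf sequence TGCTGAC in 4 (1.30%) and 11 (1.85%). Of the 4 peaks with TGCTGAC, the strongest was that between blw and CycB (signal 615). The cAMP response element TGACGTCA was found in none of the 307 (3 counts would be 0.977%, and the exact upper bound is 1.19%), against 4 flanking windows (0.673%). One of the peaks with TGACTCA lay between Chsy and sog (signal 93.1). The gene sog encodes the Dpp antagonist short gastrulation.

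The sequences that mark promoter peaks were scarce in the intergenic ones. The DNA replication-related element TATCGATA was held by 3 of 307 intergenic peaks (0.977%, 0.202 to 2.83), against 178 of 1889 promoter peaks (9.42%, 8.14 to 10.8). Motif 1, searched as GGTCACAC, was held by 2 intergenic peaks (0.651%, 0.0790 to 2.33) and by 109 promoter peaks (5.77%, 4.76 to 6.92). The peaks inside genes resembled the intergenic ones, with 0.297% for TATCGATA and 0.396% for GGTCACAC. The intergenic peaks with TATCGATA had low signals of 83.9 (between GstE11 and CG43066), 83.5 (between CG3168 and RpL17) and 76.4 (between Sumo and snRNP-U1-70K). Those with GGTCACAC were the peak between GstE11 and CG43066 again and the stronger one between slp1 and slp2.

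The rest of the 17 sequences of the panel gave shares whose intervals overlapped those of the flanking windows (plot of the shares of windows that hold each sequence). The GATA sequence GATAAG was found in 10.7% of intergenic peaks and 11.1% of flanking windows. The homeodomain core TAATTA was found in 12.4% and 14.98%, and the E-box CATATG of the mesoderm factor Twist in 8.79% and 5.72%. The forkhead sequence GTAAACA stood at 4.23% in intergenic peaks (2.27 to 7.13), 3.54% in flanking windows and 9.71% in peaks inside genes (7.96 to 11.7). These intervals cover counting error over windows only.

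**Figure D1:**
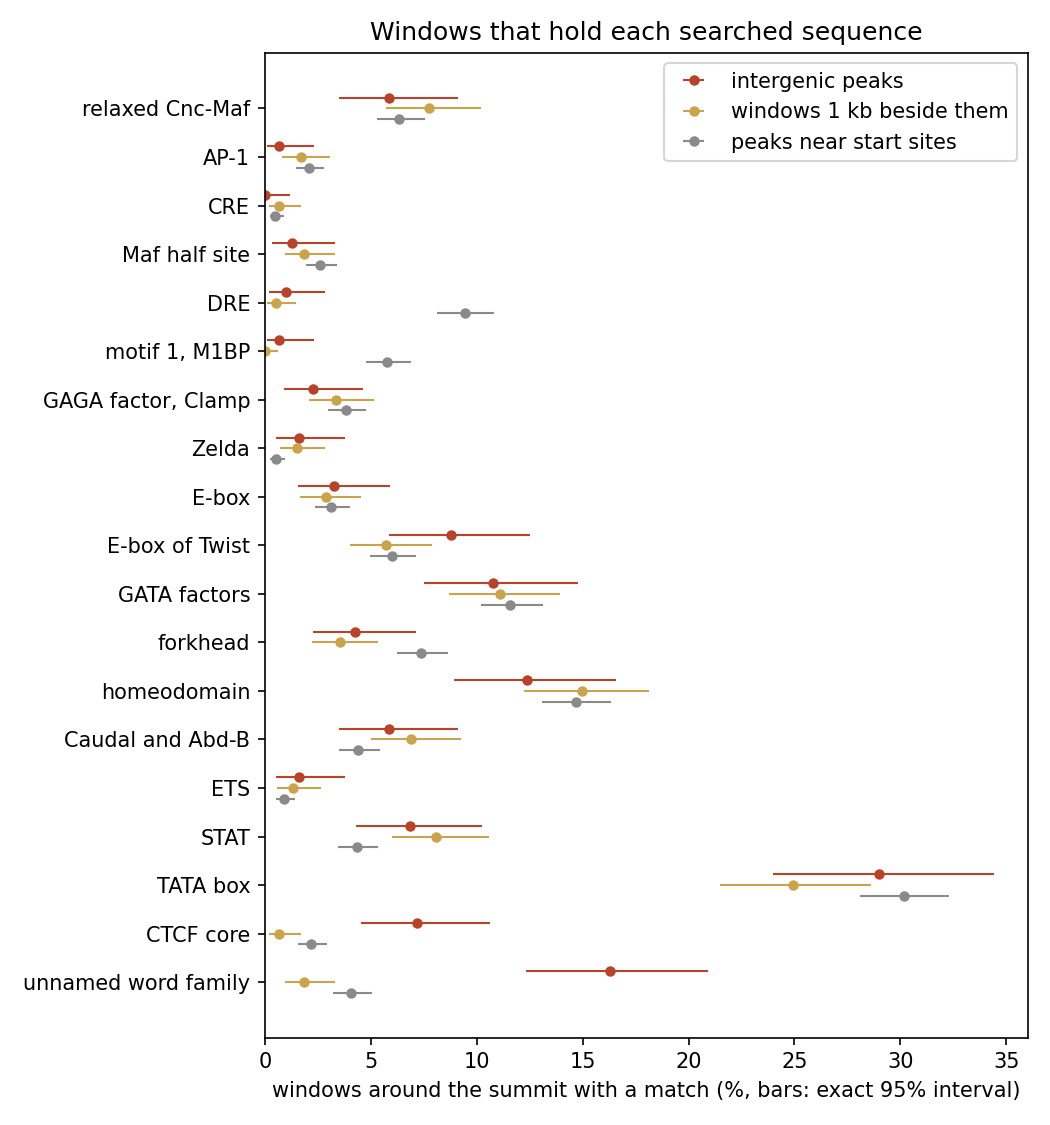
Share of 201 bp windows that hold each searched sequence on either strand, for the 307 intergenic peaks, the 594 windows 1 kb beside them and the 1889 promoter peaks, with exact 95% intervals. The CTCF core, counted as AGNTGGCGC, and the unnamed word family were both chosen after the data were seen. They stand at 7.17% and 16.3% in the intergenic peaks, against 0.673% and 1.85% in the windows beside them. The Cnc-Maf core stands at 5.86% against 7.74%.

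A search of all words of 8 bases then asked which letters the intergenic summits share. Ranked by the difference in share between the intergenic peaks and their flanking windows, TCAGTGTA came first, with 23 of 307 peaks (7.49%) and none of 594 flanking windows (3 counts would be 0.505%, and the exact upper bound is 0.619%). TCTCAGTG was the third with 21 peaks (6.84%) and 2 flanking windows (0.337%), and TCAGTGCA the eighth with 22 peaks (7.17%) and 9 flanking windows (1.52%). Words rich in A and T also stood high: ATTTAAAA was the second with 38 peaks (12.4%) and 32 flanking windows (5.39%), CTTTTAAA the fourth with 24 (7.82%) and 11 (1.85%), and AAACTTAA the seventh with 22 (7.17%) and 9 (1.52%). At least 1 of the 3 TCAGTG words was present in 50 intergenic peaks (16.3%, 12.3 to 20.9) and in 11 flanking windows (1.85%, 0.928 to 3.29). Since the words were picked for this difference, these counts are a description.

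Peaks that the search did not use held the same words. They were found in 105 of 1009 peaks inside genes (10.4%, 8.59 to 12.5), against 21 of 1882 windows beside those peaks (1.12%, 0.692 to 1.70). In promoter peaks the share was lower, 77 of 1889 (4.08%, 3.23 to 5.07), against 1.27% of the windows beside them. Intergenic summits of the pooled list below the authors' threshold also held them: 46 of 405 (11.4%, 8.44 to 14.9) at ranks 3206 to 6410, 6.89% of 1204 at ranks 6411 to 15000 and 4.46% of 2623 at ranks 15001 to 30000. The share thus declined with rank and stayed above that of the flanking windows throughout these bands.

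The words lay mostly on 1 side of the summit. Read in the direction TCAGTG, 62 of the 73 matches within 200 bp of an intergenic summit lay 1 to 150 bp after the summit (84.9%, 74.6 to 92.2) and 8 lay 1 to 150 bp before it. The median position was 64 bp after the summit, with quartiles of 41 and 86 bp. In peaks inside genes, 146 of 179 matches lay on the same side (81.6%, 75.1 to 87.0; median 76 bp after the summit), and in promoter peaks 92 of 142 did (64.8%, 56.3 to 72.6; median 49 bp). Around points 1 kb beside the intergenic summits, 8 of 18 matches did (44.4%, 21.5 to 69.2). In the replicates' own lists, where intergenic summits were taken from the 3205 strongest peaks of each, 50 of 64 matches (78.1%) of replicate 2 and 68 of 79 (86.1%) of replicate 3 lay 1 to 150 bp after the summit.

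**Figure D2:**
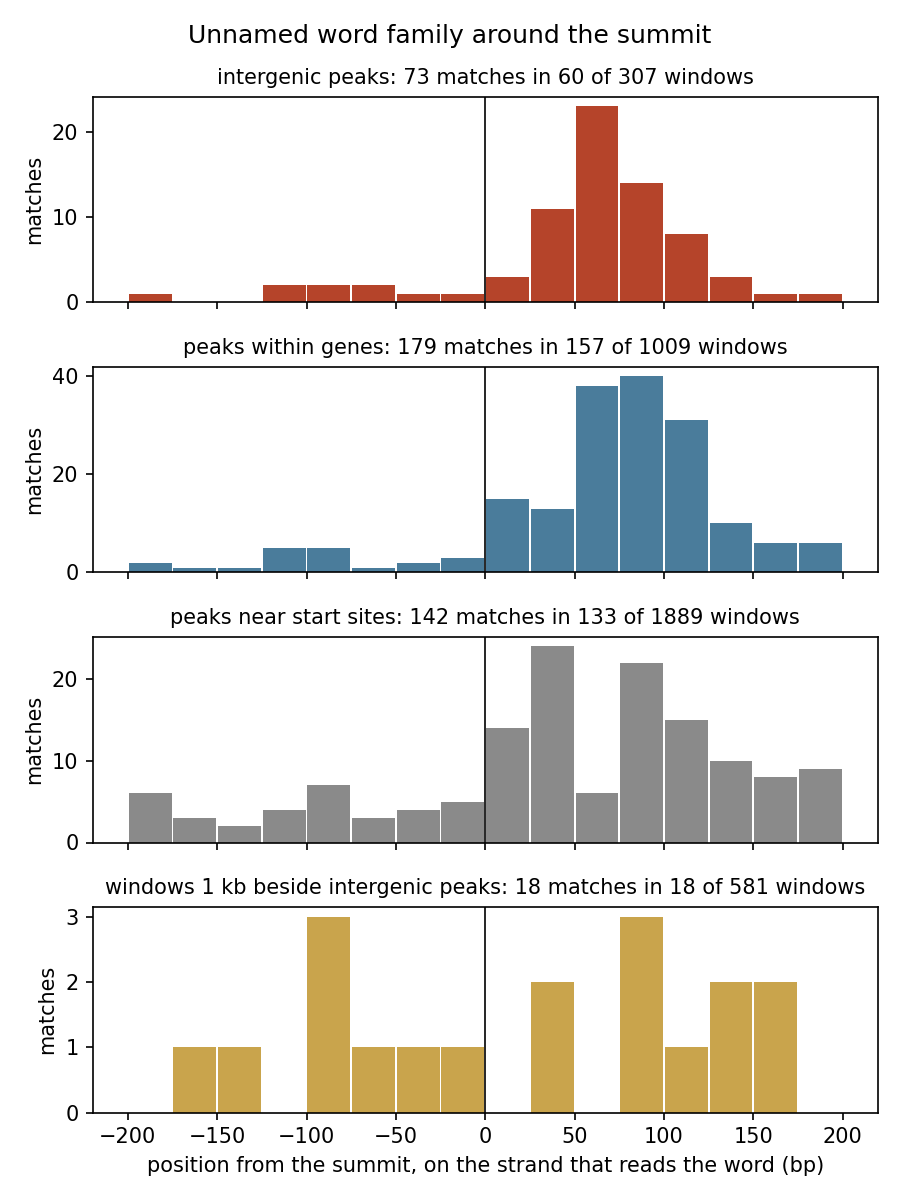
Number of matches of the unnamed word family in bins of 25 bp, by position from the summit on the strand that reads the word, for the intergenic peaks, the peaks inside genes, the promoter peaks and points 1 kb beside the intergenic summits. The matches at intergenic peaks pile up after the summit, with 23 of 73 in the bin from 50 to 75 bp, and those beside the peaks show no such pile.

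The letters beside TCAGTG were also alike. Over the 62 intergenic matches on the usual side, T was the base in 77.4%, 91.9% and 87.1% of matches at the places 8, 7 and 6 bases before the A, places that none of the 3 words covers. In promoter peaks, where start sites are near, 2 of 142 matches had a start site of the same strand within 10 bp. The words themselves are not rare. Eligible sequence, meaning all bases outside genes and over 500 bp from any start site, held 3620 such sites, a site with overlapping words being counted once, of which 72 (1.99%, 1.56 to 2.50) lay within 200 bp of an intergenic summit, against 0.321% of the eligible bases.

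The 50 intergenic peaks with a TCAGTG word had a median signal of 106, and the 257 without had 101. In replicate 3 their median rank was 1450.5, against 1867 for those without, and in replicate 2 it was 1963.5 against 1949.5. They lay farther from start sites, at a median of 3910 bp against 2168 bp, in gaps between protein-coding genes of a median 25117.5 bp against 12541 bp. Among the 6-base words, GTGTAG was the one most raised over the flanks, in 47 intergenic peaks (15.3%) and 19 flanking windows (3.20%). Of these 47 peaks, 12 also held a TCAGTG word. AGTGTA, which is part of TCAGTGTA, was in 76 intergenic peaks (24.8%) and 6.90% of flanking windows, and 27 of the 76 held a TCAGTG word.

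The CTCF core was also chosen from the search, where its part AGATGGCG was the fifth word, with 18 intergenic peaks (5.86%) and no flanking window. Counted under this name was AGNTGGCGC, whose N admits any base and not only A or G. AGNTGGCGC was present in 22 of 307 intergenic peaks (7.17%, 4.55 to 10.6) and 4 of 594 flanking windows (0.673%, 0.184 to 1.72), again a description, since the word search on these windows led to it. Its share was 3.17% in peaks inside genes (2.18 to 4.45) and 2.17% in promoter peaks (1.56 to 2.93), with 0.319% and 0.608% in the windows beside them. In intergenic summits at ranks 3206 to 6410 it was 3.70%, and at ranks 15001 to 30000 0.762%. Matches lay near the summit: 21 of 33 within 200 bp were at most 50 bp away (63.6%), with a median distance of 32 bp. Of 901 occurrences in eligible sequence, 33 (3.66%, 2.53 to 5.11) lay within 200 bp of an intergenic summit.

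The strongest peaks with the CTCF core, named after their values were seen, lay between CG14762 and Optix (signal 474), between jp and brwl (287), between the Sox genes Sox21a and Sox21b (223), and between CG44439 and CG14760 (204). Optix encodes a homeodomain protein of eye development. Those 22 peaks had a median signal of 106, against 101 for the other 285, and lay at a median 1551.5 bp from a start site against 2455 bp. Only 3 intergenic peaks held both AGNTGGCGC and a TCAGTG word within 100 bp of the summit, between noc and CG33648 (signal 192), between Cad89D and the gustatory receptor gene Gr89a (127) and between wgn and Rip11 (93.8). At the peak between noc and CG33648 the match was AGTTGGCGC, which is neither of the common forms given above.

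The summits were poorer in G and C than the DNA beside them. Median GC content was 36.8% in the 307 windows at intergenic summits and 41.8% in their 594 flanking windows, some of which may lie in genes. It was 36.3% in peaks inside genes and 37.3% in promoter peaks. Bases that the reference marks as repeats or low complexity made up 17.0% of the bases both at the summits and in the flanks. Windows with any such bases were more frequent at the summits, 263 of 307 (85.7%), than in the flanks, 442 of 594 (74.4%). The bearing of such bases on the drop in GC content was not tested.

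In strength the intergenic peaks were close to the others. Their signal ranged from 72.4 to 793 with a median of 101 (quartiles 84.9 and 151). The median was 105 for peaks inside genes and 114 for promoter peaks. Divided by signal into 5 groups of 641 peaks, the list had 54, 52, 55, 79 and 67 intergenic peaks from the strongest group to the weakest. The strongest 100 peaks held 6 of them, beside 22 inside genes and 72 at promoters.

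**Figure D3:**
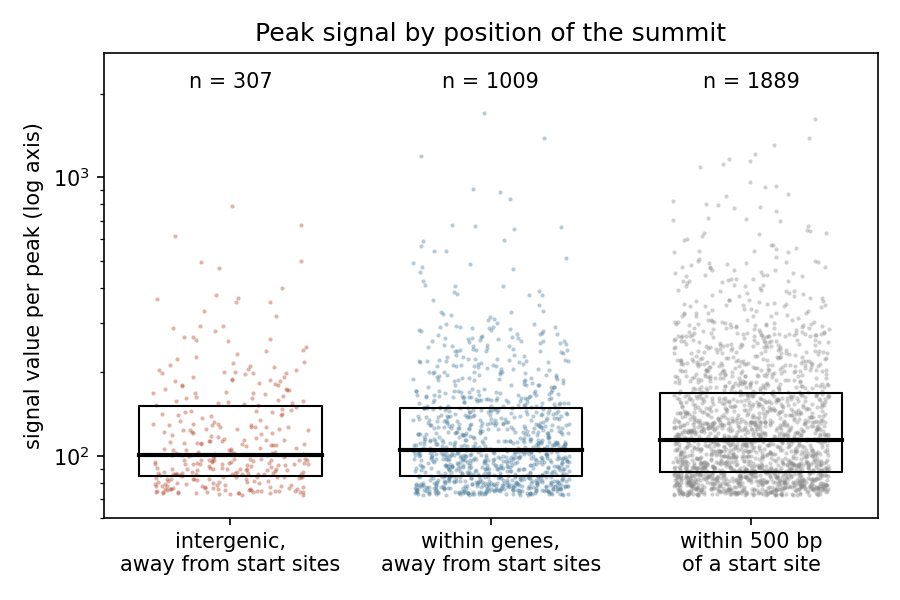
Signal value of each thresholded peak on a log axis, for the 307 intergenic peaks, the 1009 peaks inside genes and the 1889 promoter peaks; the box marks the quartiles and the thick line the median. The medians are 101, 105 and 114, and the 3 boxes overlap over most of their height.

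The intergenic share of the pooled list grew below the threshold. It was 9.58% at ranks 1 to 3205, 12.6% at ranks 3206 to 6410, 14.02% at ranks 6411 to 15000 and 17.5% at ranks 15001 to 30000, while the promoter share was 58.9%, 49.1%, 33.1% and 22.1%. Eligible sequence made up 27.1% of the 6 chromosome arms, more than the intergenic share of summits even in the weakest band. Of the eligible bases, 73.3% lay outside marked repeats, and the bearing of repeats on these shares was not tested. The shares of bases by gap width and by arm given below count marked repeats too. Taken from each replicate alone, the 3205 strongest peaks held 289 intergenic summits in replicate 2 (9.02%) and 333 in replicate 3 (10.4%, 9.35 to 11.5).

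Agreement between the replicates was like that of the whole list. Matched by summits within 150 bp, 214 of the 307 intergenic peaks (69.7%, 64.2 to 74.8) ranked among the 3205 strongest in both replicates, and the background over all thresholded peaks was 72.4%. The share was 70.9% for peaks inside genes and 73.7% for promoter peaks. The replicates contributed unequally: 237 intergenic peaks (77.2%) were among the strongest of replicate 2 and 277 (90.2%) among those of replicate 3. Of the 304 matched in both, 119 (39.1%) ranked higher in replicate 2, a share of 39.7% inside genes and 53.0% at promoters. Across these 304 the correlation of log2 signal was 0.78 (Pearson) and that of ranks 0.65 (Spearman), over points that share the same 2 libraries. The median distance between the matched summits of replicate 2 and replicate 3 was 20.5 bp.

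**Figure D4:**
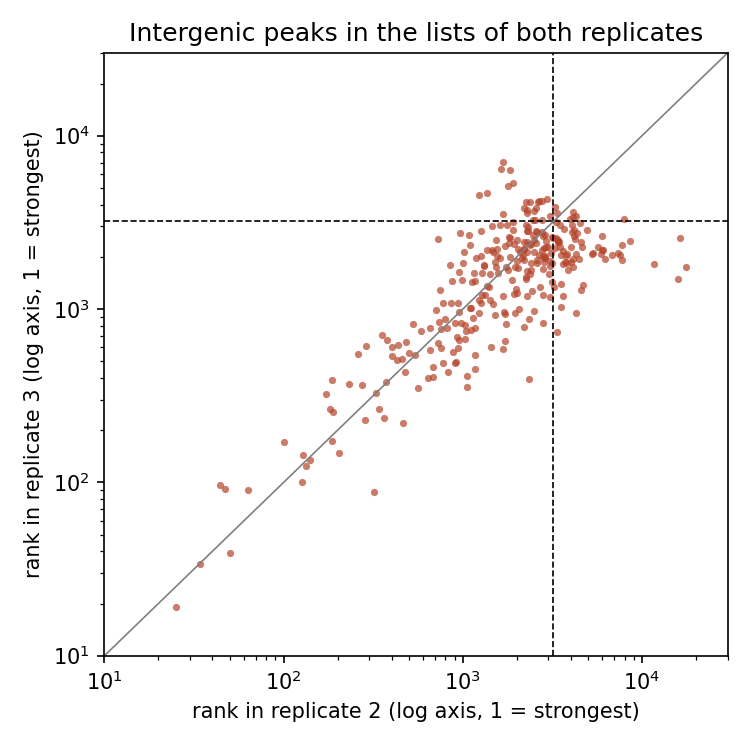
Rank of each of the 304 intergenic peaks matched in both replicates, on log axes, with dashed lines at rank 3205 and a line of equal rank. The strongest peaks lie along the line of equal rank, and more points pass the dashed line of replicate 2 than that of replicate 3: of all 307 peaks, 237 and 277 were within rank 3205.

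The largest disagreements were of 1 kind among the peaks of low signal. The peak between CG43401 and CG43402 (signal 77.8) ranked 15811 in replicate 2 and 1486 in replicate 3. The peaks between fuss and toy (17529 and 1740), between mah and tnc (11689 and 1826) and between CG42831 and tna (16310 and 2572) went the same way. The peak between bdl and Atet, with a signal of 168, ranked 2334 and 397. The 3 without a match in replicate 2 lay between laf and Gnf1, between Hacd1 and Rh5, and beside tRNA:Ile-AAT-1-9, at ranks 1238, 970 and 1356 of replicate 3, and all 307 had a match in that replicate.

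The strongest intergenic peak lay at chr2R:13035173-13035490, between Su(z)2, a RING finger gene of the Polycomb group, and CG13323. Its signal was 317 in replicate 2, 480 in replicate 3 and 793 in the pooled list, at ranks 25, 19 and 23. Its summit was 11911 bp from the nearest start site, that of CG13323, so it was remote as well as strong. The gap between Psc, the paralogue of Su(z)2, and CG13321 held 2 more intergenic peaks, the stronger with a signal of 260.

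Upstream of tara, a gene of the trithorax group, 2 intergenic peaks stood close to each other. The one at chr3R:16222333-16222637 had a signal of 675 and ranked 34 in both replicates, and the one at chr3R:16224391-16224596 had 358 and ranked 141 in replicate 2 and 134 in replicate 3. They lay 3185 and 1159 bp from the start of tara, and 929 and 892 bp from start sites of lncRNA:CR45643. The ranks were nearly equal in the replicates for both.

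The other peaks at the top were likewise strong in both replicates. The one between blw and CycB, the gene of mitotic cyclin B, had a signal of 615 and ranks of 50 in replicate 2 and 39 in replicate 3. The one upstream of sp3 and beyond the homeodomain gene C15 had 500 and ranks of 47 and 91. The one between CG14762 and Optix had 474 and ranks of 63 and 90. All 3 were within the strongest 100 in each replicate.

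Below these, the peak at chrX:5696403-5696627 between CG3149 and AdamTS-B had a signal of 402, and that between COX7AL2 and CG31668 had 369. The peak beside CG31668 was the least even of the strongest 15, at rank 318 in replicate 2 and 88 in replicate 3. The peak between the zinc finger gene dati and lgs, a gene of Wnt signalling, on chromosome 4, had 367. The peaks upstream of stck, which encodes the focal adhesion protein PINCH (358), between slp1 and slp2 (331), beside RasGAP1 (319) and between Sol1 and Cyp9f2 (292) complete the strongest 15.

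The gap with the most intergenic peaks was that between RFeSP and chinmo, a BTB zinc finger gene of neuronal temporal identity and stem cell maintenance, at chr2L:1614161-1651257. It spanned 37097 bp and held 6 intergenic peaks among 9 thresholded peaks of all classes. From the RFeSP side their signals were 86.0, 378, 162, 499, 240 and 217. The 499 and 378 peaks ranked 44 and 133 in replicate 2, and 97 and 125 in replicate 3. The distances of the 6 from the nearest coding start ran from 2453 to 18405 bp, and the strongest was 12475 bp upstream of chinmo.

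Some gaps held several peaks. Of 5520 gaps between protein-coding genes with eligible bases, 251 held the 307 peaks (4.55%). In 36 of those gaps there were at least 2, with 92 peaks in all. How many such gaps their width alone would give was not tested. The gap between hng3 and CG13898 held 5, with signals of 142, 93.7, 153, 74.5 and 262. Those between NijA and CG43245 and between CG44362 and CG7560 held 4 each. The gap between dnc and Myc, the growth regulator, held 3 weak ones of 89.5, 97.8 and 75.1, and the second and the third were matched to the same peak of replicate 2, at rank 1796, and to ranks 1688 and 5105 in replicate 3. That pair was the only one to share a replicate peak.

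At short range few of the intergenic peaks had a neighbour. Another thresholded summit lay within 1 kb of 25 of them (8.14%), against 427 of the other 2898 peaks (14.7%) and a background over all peaks of 14.1%. The median distance to the next peak was 8741 bp, against 5894 bp for the others. In 13 of the 25 the neighbour was itself intergenic, as in the pair beside aop, which encodes the ETS repressor Yan (signals 182 and 96.5), those between CG44362 and CG7560, and that between scyl and Dyro.

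In distance from start sites the peaks were nearer than the sequence available to them. The distance ran from 511 to 36673 bp with a median of 2347 bp. In the range of 500 to 1000 bp there were 69 peaks (22.5%, 17.9 to 27.6), against 7.79% of the eligible bases. Beyond 10000 bp there were 30 (9.77%, 6.69 to 13.7), against 35.1% of the bases, or 30.5% of those outside marked repeats. The nearest start was that of a protein-coding gene for 202 peaks, of a non-coding RNA for 94, of a transfer RNA for 8, of a pseudogene for 2 and of a small nucleolar RNA for 1.

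**Figure D5:**
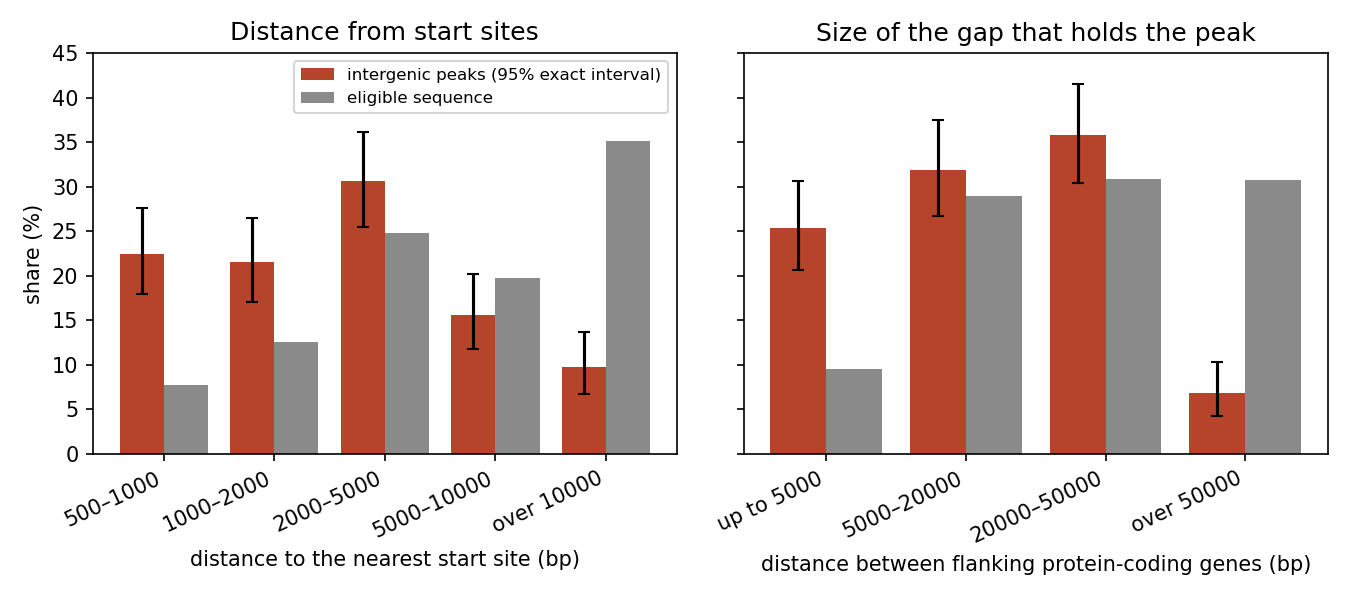
Share of the 307 intergenic peaks, with exact 95% intervals, and of eligible bases, by distance to the nearest start site (left) and by the distance between the flanking protein-coding genes (right). Peaks exceed the bases in the range of 500 to 1000 bp (22.5% against 7.79%) and in gaps of at most 5000 bp (25.4% against 9.54%), and fall short beyond 10000 bp and in gaps over 50000 bp.

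Wide gaps were poor in peaks. Gaps over 50000 bp between protein-coding genes held 21 peaks (6.84%, 4.28 to 10.3) and 30.7% of the eligible bases in gaps. Peaks lay upstream of the nearest start in 203 cases (66.1%, 60.5 to 71.4), against 58.8% of the bases, and between divergent genes in 98 (31.9%, 26.7 to 37.5), against 24.7%. Tandem genes flanked 153 and convergent genes 56 (18.2%, 14.1 to 23.0, against 23.2% of the bases). The 5 peaks farthest from a start included 3 of the 4 in the 75047 bp gap between NijA and CG43245, at 36673, 31875 and 26114 bp, with signals of 119, 281 and 93.4. The other two lay 26250 bp from vvl, a POU domain gene of trachea and neurons (signal 127), and between the cell death genes grim and rpr (82.9).

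Among the arms, 2L was rich and 2R poor in intergenic peaks. Arm 2L held 77 (25.1%, 20.3 to 30.3) with 18.5% of the eligible bases, and 2R held 46 (14.98%, 11.2 to 19.5) with 20.5%. Over all classes, those arms held 19.5% and 18.9% of the peaks. Arms 3L, 3R and X held 78, 62 and 39 intergenic peaks. Chromosome 4 held only 5 (1.63%, 0.531 to 3.76), with 0.676% of the eligible bases. That made 20.4 per Mb of eligible sequence, against 11.5 on 2L.

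By count, genes of patterning had the most intergenic peaks among the 9 gene lists. The lists differ in size and were chosen with earlier results of these data known. In 9 cases the nearest coding start belonged to 1 of the 63 patterning and homeodomain genes (2.93%), against 0.749% of all 3205 peaks. With the genes on both sides counted, 18 intergenic peaks lay beside such a gene (5.86%, 3.51 to 9.11). That interval covers the 4.53% of the eligible bases that did. The 4 strongest belonged to slp2 (331), to the head gap genes ems (157) and oc (135), and to the trunk gene tsh (111). Most were remote, at 4336, 13069, 6078 and 17972 bp from the start.

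Signalling genes were nearest in 7 cases (2.28%, against 2.18% of all peaks). They were the peaks of aop, with 2, the Hedgehog receptor gene ptc (signal 166, 5279 bp from the start) and the Notch ligand gene Ser (95.5), and 3 with signals of at most 94.7. With both sides counted, signalling genes flanked 12 intergenic peaks (3.91%, 2.04 to 6.73), against 2.05% of the eligible bases. Genes of axon guidance and adhesion were nearest in 6 (1.95%, against 0.842% of all peaks), led by robo2 (153), ds (124), dpr20 (113) and ed (74.8). Counted on both sides they flanked 12 intergenic peaks (3.91%, 2.04 to 6.73), against 5.35% of the eligible bases. Tissue-determining factors were nearest in 3 (0.977%, against 1.28% of all peaks): vvl, the forkhead gene bin (101) and dac (72.5). Of the 18 basic leucine zipper genes only Atf3 was nearest to an intergenic peak (0.326%, against 0.655% of all peaks), and neither maf-S nor its partner cnc was.

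Each of the other 4 lists was nearest to at most 4 intergenic peaks. No intergenic peak had a cytosolic ribosomal protein gene as the nearest, where 3 counts would be 0.977% and the exact upper bound is 1.19%, against 61 of all 3205 peaks (1.90%). Detoxification genes were nearest in 4 (1.30%), against 12 of all 3205 peaks (0.374%): Cyp6v1 (111), Cyp4d21 (93.0), Cyp4s3 (85.5) and Cyp12e1 (80.7). The start of Cyp12e1, though the nearest coding one, was 59531 bp from the summit. Chemosensory genes were also nearest in 4 (1.30%), against 6 of all peaks (0.187%), of which Gr89a (127) and Gr93d (87.2) were the strongest, Obp56h (77.7) and Obp99b (74.2) following. The cuticle protein gene Cpr76Ba had a single strong peak of 267, at 1608 bp. Cuticle protein genes were nearest in 0.326% of intergenic peaks, against 0.0624% of all peaks. Counted on both sides, chemosensory genes flanked 1.95% of intergenic peaks (0.721 to 4.21), against 4.001% of the eligible bases. Cuticle protein genes flanked 0.326% (0.00825 to 1.801, against 0.885%) and ribosomal protein genes 0.651% (0.0790 to 2.33, against 1.70%). Detoxification genes flanked 2.61% (1.13 to 5.07), against 1.89%. Each of these intervals covers the share of the bases.

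The limit of 500 bp cut through a continuous range. Just inside it were peaks 511 bp from Dyro (signal 79.6), 512 bp from CheB93b (73.6) and 516 bp from tRNA:Ile-AAT-1-9 (81.5). Just outside were peaks at 500 bp from CrebA (88.9), at 498 bp from CG17896 (546) and at 492 bp from snoRNA:Or-CD4 (124).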

How the data were processed

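ChIP-seq peak lists on dm6 were used, per the labels: 1 for each of the 2 replicates, 1 for the pooled replicates and 1 thresholded by the irreproducible discovery rate (IDR). The authors' caller gave each peak a signal value, deposited as such, together with a −log10 q-value, deposited as 3.81 for every row of the thresholded list and therefore not used. The 3205 thresholded peaks were those ranking first by signal in the pooled list. Aligner, caller, IDR threshold and read depth are not given in the sources used here, so the depth behind a peak is unknown. The control experiment named in the labels and the dm3 lists were not analysed here.

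Coordinates are 1-based. Genes came from Ensembl release 115 without those of transposable elements (18164 genes, 23581 start sites on the 6 arms), and sequence from the RefSeq copy of Drosophila Release 6, whose arms held every peak. Both strands were searched in windows of 201 bp, and a window with overlapping matches of different sequences counted for each. Flanks were windows centred 1 kb away that touched no thresholded peak, wherever they lay relative to genes and start sites. Intervals are exact (Clopper-Pearson, 95%) and cover counting only, and beside a count of 0 the share that 3 counts would make is given too. In the position counts, matches were sought up to 200 bp from the summit. Code was tested on simulated data, with Python 3.11.15, numpy 2.4.6, pandas 2.3.3, scipy 1.17.1 and matplotlib 3.10.9.

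The regions, gene lists and panel were chosen with earlier results of these data known; the TCAGTG words and AGNTGGCGC were chosen after the word search. Genes named are those beside the 15 strongest peaks, the 5 farthest from a start, the 5 strongest with TGACNNNGC, TGACTCA, TATCGATA or GGTCACAC, the 3 on each side of the 500 bp limit, the 5 of most different ranks, up to 5 within 1 kb of another, and up to 4 per list. Others, named for the chosen words, the unmatched peaks and the gaps with several peaks, were picked after their values were seen. A result beside 1 gene is not reported here. Alternatives were other gene sets, distances, windows, matching limits, and each replicate's own list.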

Additional observations from a re-analysis of the deposited data

How the results depend on the processing

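The intergenic share of 9.58% was 12.3% with protein-coding genes only, 12.8% with a limit of 250 bp, 7.43% with 1000 bp and 8.30% among the 1602 strongest peaks. The median distance of 2347 bp to a start became 3579, 1400 and 3524.5 bp under the first 3 of these, 2 of which set the distance by construction. The ratio of median signals (intergenic over other peaks) was 0.915, and 1.01 among the 1602 strongest. The share ranked among the strongest in both replicates was 57.7% with a match within 50 bp and 97.7% among the 1602 strongest. Another summit lay within 500 bp of 6 peaks and within 2 kb of 64. The share with TGACNNNGC was 2.61% and 13.0%, and that with a TCAGTG word 4.56% in the narrower window, with 50 and 200 bp either side of the summit. In the list of a single replicate the intergenic share was 9.02 to 10.4%, the ratio of signals 0.905 to 0.923, the median distance 2125 to 2334 bp, and the shares with TGACNNNGC 5.19 to 5.71%, with a TCAGTG word 13.8 to 15.9% and with AGNTGGCGC 6.61 to 6.92%, and 78.1 to 86.1% of TCAGTG words lay after the summit. Of the other 147 values, mostly panel sequences, 21 left the interval of the reported value, most of them with another window. The alternatives for the TCAGTG words and AGNTGGCGC were chosen after seeing the data. No paired analysis was possible because the series holds a single group. Depth is unknown, the signal has no replicate error of its own, and with 2 replicates no difference between classes was tested.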
